A study of Danio rerio with 16 samples.

Results

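Livers of zebrafish larvae that had reached 7 days post fertilization (dpf) with food were compared with livers of 4 dpf larvae across all genes, from 4 of the 16 RNA-seq libraries of the series. The 7 dpf group was wild type (WT) with the treatment given as Fed, and the 4 dpf group was WT with the treatment given as Normal; each had 2 libraries, and each library pooled the dissected livers of 30 larvae. WT livers fasted to 7 dpf (treatment Fast), a second 7 dpf Fed group titled ventral and 5 dpf Normal livers, with 2 libraries each, are given beside the comparison. The question is which differences between the younger and the older liver are present when the older liver has had food, since the fasted series alone would carry age and fasting together. Age and food still differ at once between the 4 dpf and fed 7 dpf groups and cannot be told apart in that comparison. Neither the labels nor the series text say what food was given or at what hour livers were taken, and nothing says whether the pools came from separate clutches, so p-values measure the spread between these libraries, which may be technical.

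Around these ages the larval liver takes over the supply of plasma proteins, lipoproteins and bile while the yolk is being used up, and food reaches it through the gut and the portal circulation. Hepatocytes make most circulating carriers, build and desaturate fatty acids, export lipids, turn cholesterol into bile acids and modify foreign compounds. They also divide, though in bulk tissue transcripts of DNA replication and mitosis do not tell which cell type divides and do not measure growth of the organ.

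Of 32058 features in the count table, 17799 genes passed the filter on low counts and were tested. At an adjusted p under 0.1 and at least 2-fold, the limits the series design text gives, 1711 genes changed, 9.61% of those tested. Of them 1196 rose (6.72%) and 515 fell (2.89%), so 69.9% of the calls were higher in the fed 7 dpf liver. With totals of counts in place of trimmed mean of M-values (TMM) scaling, the all-gene median became -0.14 on the log2 scale and that share 56.0% (981 higher and 772 lower), so every change is relative to the TMM scaling. The same model called 6673 genes between fed and fasted livers at 7 dpf (37.5%, with 20.7% higher and 16.8% lower) and 6953 between fasted 7 dpf and 4 dpf livers (39.1%, with 18.7% higher and 20.3% lower). Between ventral fed and 4 dpf livers it called 2373 (13.3%, with 8.17% higher and 5.16% lower), and all of these comparisons share libraries with each other. Levels below are TMM-scaled CPM, the count of a gene relative to its library's total. Differences are log2 fold changes from edgeR's quasi-likelihood test, and p-values are adjusted by Benjamini-Hochberg over all genes tested. The ± value is an SE worked back from the test, the absolute log2 fold change over the square root of F. It rests on spread estimated over all 8 groups, and n = 2 libraries a group throughout. In bulk tissue, fewer cells of a type and less RNA per cell cannot be told apart. Counts of list members called are to be read beside the shares over all genes, 6.72% higher and 2.89% lower. Counts at an unadjusted p under 0.05 are to be read beside the 5267 of 17799 genes that reached it in either direction.

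The 4 libraries held 18995692 to 23462617 counts. Hepatocyte identity markers took 11.6% and 12.1% of counts at 4 dpf and 14.0% and 13.2% in fed livers, so hepatocyte transcripts were abundant in all 4 libraries. Transferrin (tfa, ENSDARG00000016771), among the most abundant of them, stood at 45940.1 and 40128 CPM in fed and 33921 and 38688 CPM at 4 dpf and was not called (0.25 ± 0.12). Libraries also held transcripts of neighbouring organs, unevenly. In 4 dpf replicate 1 the heart muscle transcripts tnnt2a, cmlc1 and myh6, picked after their values were seen, stood at 36.6, 37.7 and 49.2 CPM, against 0.152, 0.685 and 3.43 CPM in 4 dpf replicate 2. In the fed libraries all of these lay at or under 2.89 CPM. Of the 515 genes that fell, 46 were over 3-fold higher in 4 dpf replicate 1 than in replicate 2, and 7 the reverse. Fed replicate 2 held gut and islet transcripts, and of the 1196 genes that rose 48 were over 3-fold higher in it than in fed replicate 1, and 37 the reverse. Such genes are given with each library's value.

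**Figure D1:**
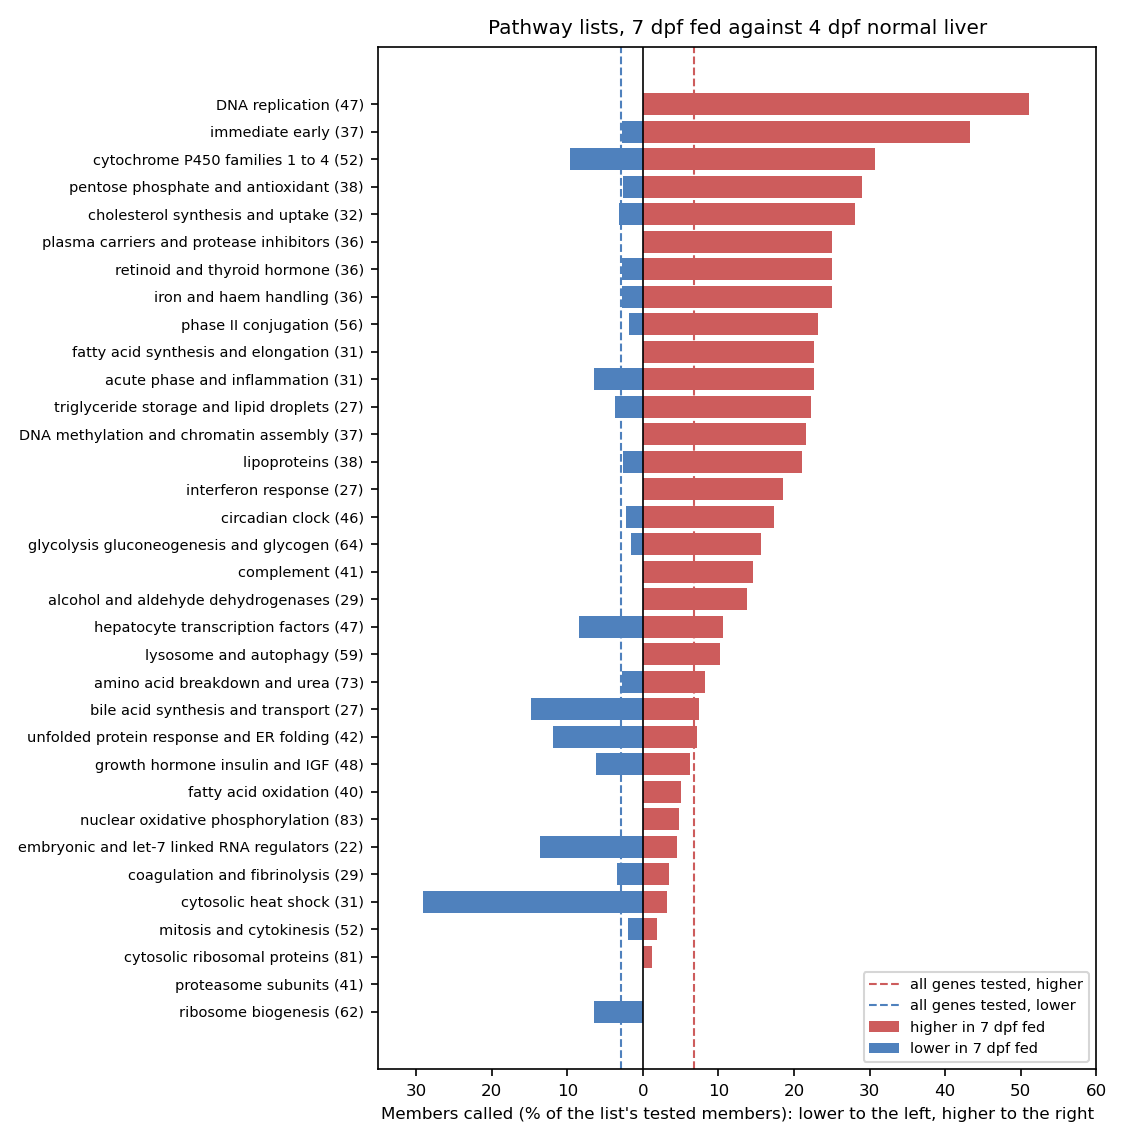
Share of each pathway list's tested members (number in brackets) called higher (red, to the right) or lower (blue, to the left) in 7 dpf fed than in 4 dpf normal liver, with dashed lines at the shares of all genes tested, 6.72% higher and 2.89% lower. DNA replication reached the highest share of higher calls among these lists, 24 of 47, and cytosolic heat shock the highest share of lower calls, 9 of 31.

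Secreted plasma proteins were among the clearest increases. Of 36 carriers and protease inhibitors tested, 9 rose and the other 27 were not called (median log2 difference 0.42, against 0 over all genes). Fetuin ahsg2 (ENSDARG00000069293), a binder of calcium phosphate in plasma, stood at 1627 and 1529.5 CPM in the fed libraries and 96.6 and 107 CPM at 4 dpf. Both fed libraries lay far above both 4 dpf libraries, a 15.5-fold difference (log2 3.96 ± 0.14, adjusted p = 1.93e-12) with the smallest p of all genes tested. Fasted 7 dpf livers lay between, at 499 and 436 CPM, and the fed-to-fasted difference was itself called (1.75 ± 0.13, adjusted p = 1.15e-09). Its relative ahsg1 rose 5.21-fold (676 and 596 against 107 and 137 CPM), and fasted livers held 1137 and 957 CPM, a difference from fed that was not called.

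Haemopexin hpxa (ENSDARG00000012609), which carries free haem in blood, showed a different order. Its level was 3890.1 and 2686 CPM in fed livers and 26.9 and 22.5 CPM at 4 dpf, 133-fold higher (7.05 ± 0.32, adjusted p = 4.64e-08). Fasted livers held 16.9 and 13.3 CPM, below the 4 dpf level, and 5 dpf livers 201 and 189 CPM. Paraoxonase pon1 (ENSDARG00000032496), an esterase carried on high-density lipoprotein, followed the same order with 67.7 and 64.4 CPM in fed, 3.29 and 2.25 CPM at 4 dpf and 1.95 and 1.95 CPM in fasted livers (23.8-fold against 4 dpf, adjusted p = 8.27e-12). The retinol carrier rbp4 rose 2.24-fold from 1888 and 1899 to 4607 and 3870.1 CPM, and was higher still in fasted livers at 12255 and 11097 CPM. Fetuin B (fetub), one of the most abundant carriers, was not called, with 22925 and 20952 CPM in fed and 15011 and 18812 CPM at 4 dpf.

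Of 41 complement genes, 6 rose and 35 were not called (median 0.38). Factor D (cfd), the protease that starts the alternative pathway, stood at 17.2 and 15.6 CPM in fed and 2.12 and 1.83 CPM at 4 dpf, 8.29-fold higher (3.05 ± 0.43, adjusted p = 0.00058). The C3 copy c3a.4 went from 1.77 and 2.36 to 12.4 and 10.7 CPM (5.59-fold). With ventral fed livers in place of the fed ones, 10 complement genes rose. Of 29 clotting and fibrinolysis genes, kininogen kng1 rose 2.01-fold (1.01 ± 0.12), close to the fold limit, and was not called without 4 dpf replicate 1 (log2 0.97) or fed replicate 1 (0.93). The clotting factor f8 was called lower, with overlapping groups: 4 dpf replicate 1, the library with heart transcripts, held 51.6 CPM, 4 dpf replicate 2 held 1.52 CPM and the fed libraries 1.63 and 0.610 CPM. Without 4 dpf replicate 1 its log2 difference was -0.46 and not called.

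Lipid transport changed at particular genes. Of 38 lipoprotein genes, 8 rose, 1 fell and 29 were not called (median 0.21). Apolipoprotein apoa4a (ENSDARG00000101160), a component of lipid-carrying particles, stood at 109 and 83.8 CPM in fed livers and 0.495 and 0.609 CPM at 4 dpf. This was a 173-fold difference (7.44 ± 0.29, adjusted p = 1.54e-11), and neither the 5 dpf libraries (0.202 and 0.0974 CPM) nor the fasted ones (0.177 and 0.103 CPM) came near the fed level. Apolipoprotein E apoeb, a ligand for lipoprotein uptake, rose 7.61-fold from 35.5 and 25.9 to 259 and 208 CPM. The apolipoprotein A-I copy apoa1a rose 6.75-fold (19.1 and 24.97 to 111 and 187 CPM), while fasted livers held 323 and 189 CPM. The major copies did not pass: apoa1b stood at 60908 and 52219 CPM in fed and 42369.7 and 46374 CPM at 4 dpf (0.35 ± 0.13), and apobb.1 differed by 0.21 ± 0.13. The other apolipoprotein E copy, apoea, was called but held 2.37 and 105 CPM in the fed replicates and its log2 difference was 0.31 and not called without fed replicate 2.

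Some enzymes that lengthen and desaturate fatty acids rose. Of 31 fatty acid synthesis and elongation genes 7 rose and 24 were not called, with a median of 0.19. The fatty acid desaturase fads2 (ENSDARG00000019532), which puts double bonds into polyunsaturated chains, stood at 1987 and 1758 CPM in fed and 200.4 and 216 CPM at 4 dpf, 8.998-fold higher (3.17 ± 0.27, adjusted p = 7.02e-06). The elongase elovl6, which lengthens saturated chains, had 70.03 and 63.6 CPM in fed and 1.48 and 1.14 CPM at 4 dpf, a 50.5-fold difference (5.66 ± 0.43, adjusted p = 5.51e-06). In both genes the fed libraries were far above every 4 dpf, 5 dpf and fasted library. The polyunsaturated elongases elovl2 (321 and 316 to 1771 and 1514 CPM) and elovl5 (37.4 and 39.9 to 209.6 and 236 CPM) rose 5.15-fold and 5.76-fold.

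Compared with the fasted liver of the same age, fads2, elovl2 and elovl5 were higher by 5.26 ± 0.29, 7.34 ± 0.47 and 5.12 ± 0.22 on the log2 scale, and fasted levels lay under those of 4 dpf (10.4 and 9.79 CPM for elovl2). The desaturase scd, which makes monounsaturated fatty acids, had no counts in either 4 dpf library and 1.26 and 1.18 CPM in fed livers, at least 22.1-fold higher with 3 counts over the 4 dpf group as the floor, and there fasted livers were higher again at 5.05 and 4.67 CPM. The fatty acid transport protein slc27a6 (ENSDARG00000046053) rose 32.2-fold, with 26.4 and 30.8 CPM in fed, 0.636 and 1.14 CPM at 4 dpf and 9.74 and 8.92 CPM in fasted livers (5.01 ± 0.24, adjusted p = 7.04e-11).

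**Figure D2:**
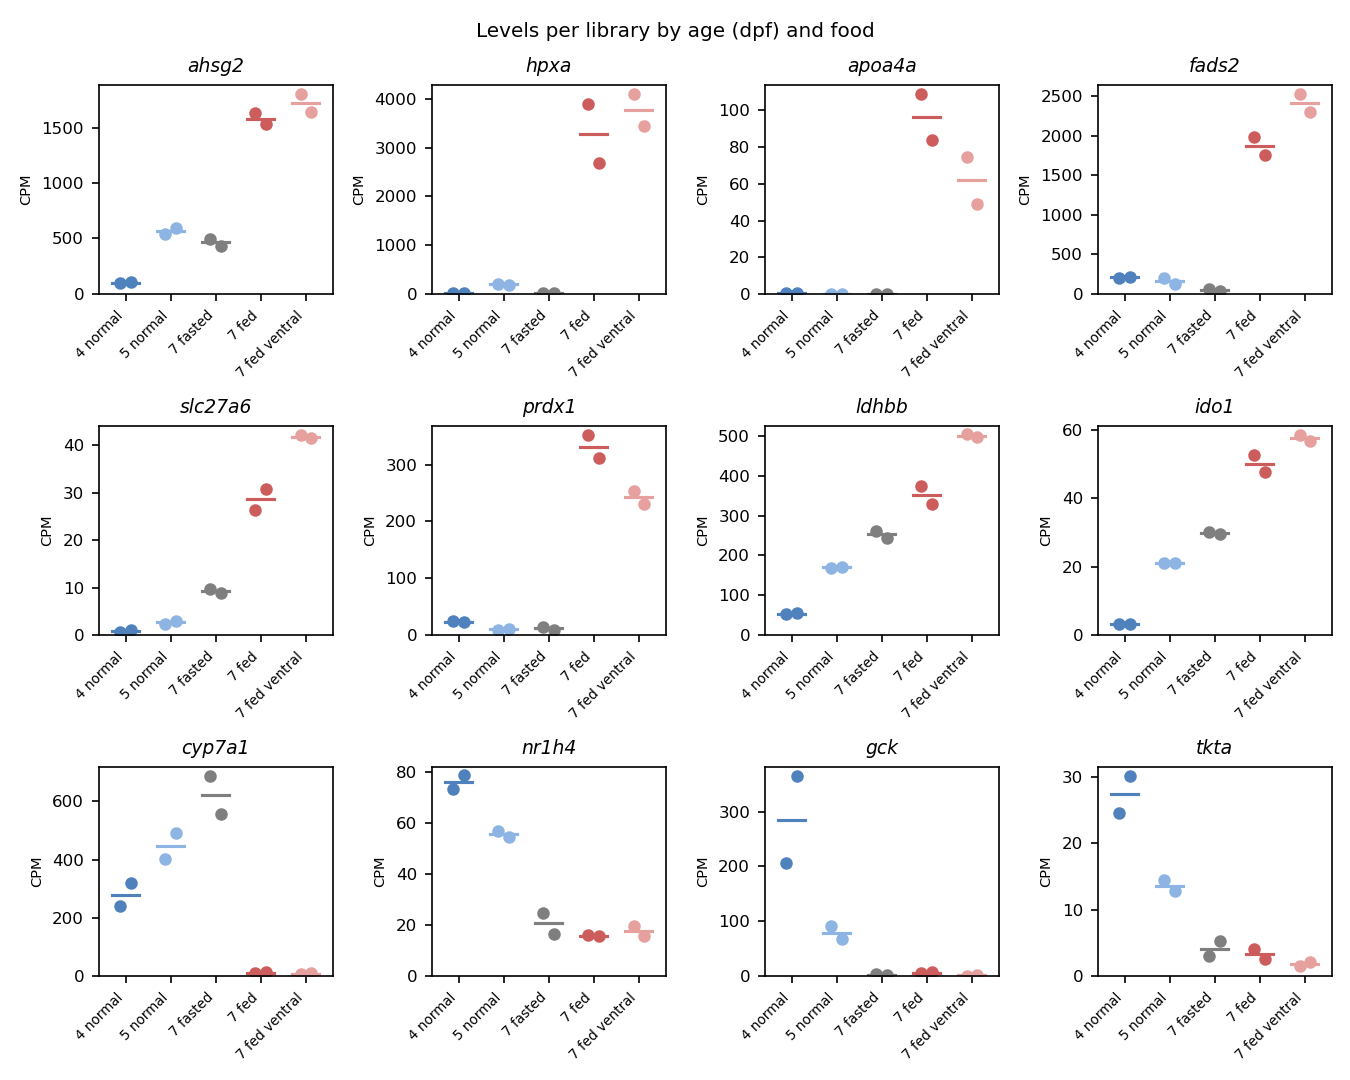
Levels (CPM, linear axes from 0) of 12 genes in each library (points) with group means (lines) at 4 and 5 dpf Normal and at 7 dpf fasted, fed and fed ventral. For apoa4a, hpxa, fads2 and prdx1 the fed and ventral libraries stand above all others, for ldhbb, slc27a6 and ido1 fasted livers lie between 4 dpf and fed, and for nr1h4, gck and tkta all 7 dpf libraries lie below 4 dpf.

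Of 32 cholesterol synthesis and uptake genes, 9 rose and 1 fell (median 0.45). The sterol methyl oxidase msmo1 stood at 1635 and 1744 CPM in fed and 336 and 588 CPM at 4 dpf (3.66-fold, 1.87 ± 0.38, adjusted p = 0.00933), and acat2, the thiolase that opens the pathway, rose 3.04-fold from 132 and 176 to 505 and 429.7 CPM, a call lost without 4 dpf replicate 1. The 4 dpf replicates differed more than the fed ones in msmo1, and the count of members that rose was 2 without 4 dpf replicate 1, 4 without fed replicate 1 and 5 without fed replicate 2. The synthase hmgcs1, at the head of the pathway, was at 2606 and 2846 CPM in fed and 1912 and 3098 CPM at 4 dpf with overlapping groups. Against fasted livers, which held 15.5 and 17.0 CPM, fed livers were higher by 7.39 ± 0.58 (adjusted p = 5.93e-06). The sterol sensor partner scap, which escorts the pathway's transcription factor, fell 2.91-fold from 46.5 and 54.5 to 15.6 and 19.1 CPM (-1.54 ± 0.19, adjusted p = 1.22e-05).

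Lipid droplet genes rose in part, as 6 of 27 storage genes rose and 1 fell (median 0.22). In fasted livers 6 of the 27 were higher than at 4 dpf and 5 lower, against 18.7% and 20.3% of all genes. Between fed and fasted livers 10 were higher in fed and 4 lower, against 20.7% and 16.8% of all genes. Summed counts of the list were 0.151% and 0.146% at 4 dpf, 0.171% and 0.174% in fed and 0.309% and 0.399% in fasted livers. The droplet fusion protein cidec stood at 22.9 and 20.01 CPM in fed and 3.25 and 4.11 CPM at 4 dpf (5.83-fold, adjusted p = 9.18e-09), and the droplet coat plin2 went from 5.79 and 4.07 to 17.3 and 13.1 CPM (3.07-fold). Fatty acid oxidation genes moved little as a list: 2 of 40 genes rose, 38 were not called and the median was -0.09. They were cpt1b, a carnitine palmitoyltransferase that admits fatty acids to mitochondria (41.0 and 30.8 to 90.1 and 79.2 CPM, 2.36-fold), and the nuclear receptor pparaa, which switches on oxidation genes (14.0 and 17.5 to 30.5 and 35.2 CPM); pparaa missed the fold limit without 4 dpf replicate 1 (log2 0.91) or fed replicate 2 (0.95). Between fed and fasted livers of 7 dpf, 35 of the same 40 genes were higher in fed, against 20.7% of all genes.

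Bile acid synthesis was lower at its first enzyme. The rate-limiting enzyme cyp7a1 (ENSDARG00000069018), which hydroxylates cholesterol, stood at 10.3 and 13.4 CPM in fed livers and 239.8 and 319 CPM at 4 dpf. This was 23.5-fold lower (-4.55 ± 0.40, adjusted p = 4.87e-05), while 5 dpf livers held 403 and 492 CPM and fasted livers 686 and 555 CPM, so that fed livers lay below every one of these libraries. The nuclear receptor nr1h4 (ENSDARG00000057741), the bile acid sensor also known as FXR, fell 4.83-fold from 73.4 and 79.1 to 16.04 and 15.5 CPM (adjusted p = 1.3e-08). Here fasted livers were similarly low at 24.9 and 16.4 CPM, and the fed-to-fasted difference of -0.39 ± 0.16 was not called. Of 27 bile acid genes tested, 4 fell and 2 rose (median -0.12), and 1 rose without 4 dpf replicate 1 or fed replicate 2. The bile salt export pump abcb11b was not called at 1521 and 1694 CPM in fed and 1823 and 1969 CPM at 4 dpf.

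Carbohydrate metabolism was mixed. Of 64 glycolysis, gluconeogenesis and glycogen genes, 10 rose and 1 fell (median 0.09), with 5 rising without fed replicate 1 and 3 falling without 4 dpf replicate 2. The gene that fell was glucokinase gck (ENSDARG00000068006), which phosphorylates glucose on entry into the hepatocyte. It stood at 4.99 and 6.39 CPM in fed livers and 205 and 364 CPM at 4 dpf, 49.8-fold lower (-5.64 ± 0.68, adjusted p = 0.000682), with 91.1 and 66.6 CPM at 5 dpf, 3.63 and 1.03 CPM in fasted and 0.806 and 0.921 CPM in ventral fed livers. All 7 dpf libraries were far below the 4 dpf libraries, with or without food, and the fed-to-fasted difference was not called (1.26 ± 0.72, adjusted p = 0.181).

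Lactate dehydrogenase ldhbb (ENSDARG00000071076), which interconverts lactate and pyruvate, rose from 53.7 and 54.1 CPM to 374 and 329 CPM (6.52-fold, 2.71 ± 0.13, adjusted p = 8.44e-11). Pyruvate carboxylase pcxb, which feeds pyruvate into gluconeogenesis, rose 5.80-fold from 18.2 and 18.7 to 110.2 and 104 CPM. For both genes the fasted livers were close to the fed ones (262 and 243 CPM and 108 and 116 CPM), and the difference from fed was not called (0.48 ± 0.12 and -0.07 ± 0.20).

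The pentose phosphate pathway, a source of NADPH for synthesis and for antioxidant enzymes, rose at its oxidative step together with antioxidant genes. Of 38 genes of this list 11 rose and 1 fell (median 0.60). The NADPH-forming dehydrogenase pgd stood at 621 and 562 CPM in fed and 114 and 146 CPM at 4 dpf (4.56-fold, 2.19 ± 0.13, adjusted p = 2.25e-09). Glutathione reductase gsr rose 4.76-fold from 24.4 and 21.8 to 107 and 113 CPM. Peroxiredoxin prdx1 (ENSDARG00000058734), which reduces peroxides, had 352 and 311 CPM in fed livers, 24.1 and 23.3 CPM at 4 dpf and 14.6 and 9.54 CPM in fasted livers. Fed libraries stood 14.0-fold above 4 dpf (3.81 ± 0.16, adjusted p = 1.37e-11), and above fasted livers by 4.77 ± 0.17. The transketolase copy tkta, an enzyme of the non-oxidative branch, was the member that fell, from 24.6 and 30.1 to 4.00 and 2.52 CPM (8.47-fold, adjusted p = 2.89e-07), and fasted livers were as low at 3.01 and 5.23 CPM.

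Enzymes that modify foreign compounds rose more often than they fell, as did called genes in general, of which 69.9% were higher. Among 52 cytochrome P450 genes of families 1 to 4, 16 rose and 5 fell (median 0.63). Members of family 2, whose substrates in zebrafish are largely unassigned, moved in both directions. For cyp2k18 (ENSDARG00000104593) the level was 207 and 226 CPM in fed and 30.7 and 34.1 CPM at 4 dpf (6.69-fold, 2.74 ± 0.13, adjusted p = 7.04e-11). A larger fold belonged to cyp2x12, from 0.141 and 0.0761 CPM to 8.10 and 4.03 CPM (52.4-fold), near the detection floor at 4 dpf. In contrast cyp2ad3 fell 3.27-fold from 288 and 280.1 to 86.6 and 87.2 CPM (adjusted p = 2.83e-09), with the fed replicates nearly equal.

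Of 56 conjugating enzymes 13 rose and 1 fell (median 0.40). The glutathione transferase gstt1b stood at 154 and 189 CPM in fed and 25.4 and 27.4 CPM at 4 dpf (6.48-fold, adjusted p = 4.36e-10), and gstp1 rose 3.67-fold (220.1 and 213 to 883 and 707 CPM). Fasted livers held less of both than 4 dpf livers (15.6 and 15.2 CPM and 24.9 and 22.0 CPM). The alcohol and aldehyde dehydrogenase list also holds catalase and the cytochrome P450 copy cyp2y3. Of its 29 tested genes 4 rose, namely aldh3a1, adh8a, adh8b and cyp2y3. The alcohol dehydrogenase adh8a went from 5.09 and 6.51 to 47.3 and 35.7 CPM (7.15-fold) and the aldehyde dehydrogenase aldh3a1 from 0.989 and 0.837 to 7.68 and 6.75 CPM (7.83-fold). Fasted livers held still more, 76.5 and 54.9 CPM for adh8a, where the difference from fed was not called, and 25.8 and 29.6 CPM for aldh3a1, where it was (-1.94 ± 0.18).

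Few amino acid breakdown and urea genes were called, as 6 of 73 rose and 2 fell (median -0.21), and 6 fell with library size alone. The main counts were near the shares of all genes, 6.72% higher and 2.89% lower. At an unadjusted p under 0.05, 15 were higher and 32 lower, against 5267 of all 17799 genes in either direction. The list's summed counts were 4.49% of all counts in each 4 dpf library and 3.38% and 3.26% in fed livers. Indoleamine dioxygenase ido1 (ENSDARG00000033594), which opens the tryptophan ring, came next to ahsg2 in its p. Its level was 52.6 and 47.7 CPM in fed and 3.18 and 3.31 CPM at 4 dpf, 15.4-fold higher (3.95 ± 0.14, adjusted p = 1.93e-12), with 21.0 and 20.9 CPM at 5 dpf and 30.2 and 29.4 CPM in fasted livers. The methyltransferase bhmt, which remakes methionine and is among the most abundant members, was not called at 6506 and 4998 CPM in fed and 8094 and 8646 CPM at 4 dpf (-0.54 ± 0.18). The glutamine synthetase copy glula fell 3.44-fold from 59.5 and 63.6 to 21.3 and 14.6 CPM (adjusted p = 2.6e-07), whereas fasted livers held 127 and 116 CPM. Ventral fed livers held 39.8 and 32.8 CPM, and with them in place of the fed ones glula was not called.

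Part of the DNA replication genes rose, and mitotic genes had a median near 0. Of 47 DNA replication genes 24 rose and 23 were not called, with a median of 1.02, and in all 47 both fed libraries lay above both 4 dpf libraries, a separation that 58.4% of all genes showed in either direction. The polymerase clamp pcna stood at 235 and 221 CPM in fed and 113 and 96.5 CPM at 4 dpf (2.18-fold, 1.12 ± 0.15, adjusted p = 3.35e-05). Ribonucleotide reductase rrm2 (ENSDARG00000078069), which makes the DNA precursors, went from 6.29 and 4.87 to 20.1 and 22.4 CPM (3.80-fold), and the licensing factor cdc6 from 5.93 and 3.58 to 18.7 and 16.3 CPM (3.67-fold). The helicase subunit mcm5 lay at the fold limit with 98.4 and 107 against 52.5 and 50.4 CPM (1.99-fold) and was not called. With library size alone pcna was 0.97 on the log2 scale and not called.

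Of 52 mitosis and cytokinesis genes, 1 rose, 1 fell and 50 were not called (median 0.03). The number that rose was 0 with library size alone, a replicate block, DESeq2 or an adjusted p under 0.05. At an unadjusted p under 0.05, 8 were higher and 3 lower, a smaller part than the 5267 of 17799 over all genes. The proliferation antigen mki67 stood at 55.5 and 67.2 CPM in fed and 110.2 and 94.0 CPM at 4 dpf, lower in both fed libraries (-0.73 ± 0.20) but within the fold limit. Topoisomerase top2a, which untangles chromosomes, stood at 64.6 and 59.4 CPM against 89.7 and 84.0 CPM (-0.49 ± 0.32). The anaphase activator cdc20 was the member that fell, from 20.8 and 18.4 to 6.62 and 8.05 CPM (2.67-fold, adjusted p = 0.0268), and it missed the p limit without either 4 dpf replicate or without fed replicate 1. In ventral fed livers 10 mitotic genes were higher than at 4 dpf and 1 was lower.

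Both lists were low in the fasted liver. Against fasted livers of 7 dpf, 46 of 47 replication genes and 51 of 52 mitotic genes were higher in fed livers, against 20.7% of all genes. For top2a fasted libraries held 0.797 and 1.13 CPM, and 5 dpf libraries already held less than 4 dpf ones at 7.66 and 7.11 CPM. Chromatin genes that act at replication also rose in part: 8 of 37 DNA methylation and chromatin assembly genes rose and 29 were not called (median 0.37). The remodeller hells, needed for methylation of repeats, rose 3.60-fold from 8.27 and 9.74 to 27.4 and 37.3 CPM (adjusted p = 2.16e-05). The histone methyltransferase ezh2 rose 2.75-fold (8.20 and 9.93 to 23.7 and 26.2 CPM) and the histone variant h2ax 3.83-fold (4.59 and 3.65 to 16.7 and 15.0 CPM).

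**Figure D3:**
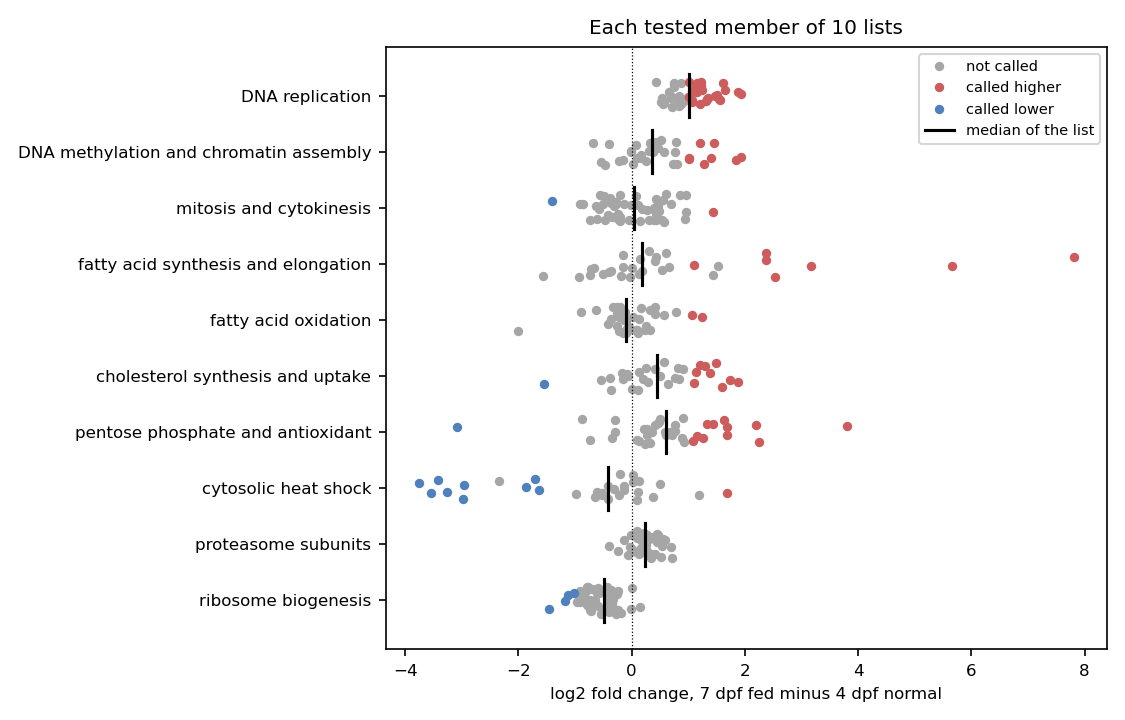
Log2 fold change of every tested member of 10 lists between 7 dpf fed and 4 dpf normal livers, with called members in red (higher) or blue (lower), others in grey and the list median as a black line. Replication genes all lie to the right of 0 around a median of 1.02, mitotic genes spread around 0.03, and the 9 heat shock genes that fell reach -3.76 (hsp90aa1.2).

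Some heat shock genes fell: of 31 cytosolic heat shock genes 9 fell, 1 rose and 21 were not called (median -0.42). In fasted livers 13 of the 31 were lower than at 4 dpf and 2 higher (median -0.55), against 20.3% and 18.7% of all genes. Between fed and fasted livers 5 were lower in fed and 4 higher, against 16.8% and 20.7% of all genes. The inducible chaperone hsp90aa1.2 (ENSDARG00000024746) stood at 6.94 and 7.65 CPM in fed and 93.8 and 105 CPM at 4 dpf, 13.6-fold lower (-3.76 ± 0.44, adjusted p = 0.000407). The co-chaperone dnajb1b fell from 7.70 and 6.09 to 0.421 and 0.976 CPM (9.602-fold). Both 4 dpf libraries were high in each. Without fed replicate 2, 5 heat shock genes fell, and bag3, the member that rose, was not called without either 4 dpf replicate. The constitutive chaperone hsp90ab1 was not called at 3434 and 3132 against 4199 and 4530.5 CPM.

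Of 42 genes of the unfolded protein response and of folding in the endoplasmic reticulum, 5 fell and 3 rose (median -0.23). The main chaperone hspa5, also called BiP, stood at 579 and 697 CPM in fed and 1442 and 1526 CPM at 4 dpf (2.33-fold lower, -1.22 ± 0.19, adjusted p = 0.000266), and its partner hsp90b1 was just under the fold limit at 880.0 and 1094 against 2016 and 1849.8 CPM (-0.97 ± 0.14). Fasted livers held less of both, 159.9 and 166 and 107 and 116 CPM. The members that rose, ddit3, atf3 and ppp1r15a, are known targets of the stress arm that acts through translation control. The transcription factor atf3 went from 0.707 and 1.599 to 12.6 and 6.83 CPM (8.41-fold) and the phosphatase subunit ppp1r15a from 5.23 and 10.4 to 46.8 and 18.6 CPM. The count that fell was 3 without 4 dpf replicate 2 and 2 without fed replicate 1, and the count that rose was 1 without 4 dpf replicate 1, where ppp1r15a was not called.

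Few members of the basal machinery lists were called. None of 41 proteasome subunits was called by edgeR or DESeq2 (median 0.23). At an unadjusted p under 0.05, 16 were higher and 1 lower, against 5267 of 17799 over all genes. Between fed and fasted livers 36 of the 41 were called higher in fed, against 20.7% of all genes. Of 81 cytosolic ribosomal proteins 1 rose (median 0.27). Of 83 nuclear oxidative phosphorylation genes 4 rose (median 0.13), among them the subunit copies cox4i1l (4.88 and 1.599 to 31.6 and 33.5 CPM) and ndufa4 (21.0 and 10.3 to 52.6 and 42.9 CPM). The ATP synthase subunit atp5f1b stood at 2943 and 2658 CPM in fed, 3154 and 3284 CPM at 4 dpf and 853 and 748 CPM in fasted livers. None of 13 genes of the mitochondrial genome was called by edgeR or DESeq2 (median -0.39). At an unadjusted p under 0.05, 7 were lower, against 5267 of 17799 over all genes in either direction. With ventral fed livers in place of the fed ones 0 were called and the median was 0.20, of opposite sign. Summed counts of these genes were 5.44% in each 4 dpf library, 4.04% and 4.12% in fed and 5.805% and 4.86% in ventral fed livers. Ribosome biogenesis factors leaned lower, as 4 of 62 fell, 58 were not called and in 56 both fed libraries lay below both 4 dpf libraries (median -0.49), against 58.4% of all genes separated in either direction. At an unadjusted p under 0.05, 46 of those 62 were lower, and the number that fell was 2 without 4 dpf replicate 1 or fed replicate 1, 8 without fed replicate 2 and 9 with library size alone.

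Of 47 hepatocyte transcription factors 5 rose and 4 fell (median -0.20), and 3 rose without 4 dpf replicate 1 or fed replicate 2. The homeobox factor prox1a, which drives hepatoblast outgrowth, fell 2.38-fold from 138 and 156 to 53.3 and 69.96 CPM (adjusted p = 8.42e-06), and the pioneer factor foxa1 2.52-fold from 36.0 and 41.6 to 14.0 and 16.8 CPM. Fasted livers held 113 and 92.6 CPM of prox1a and 34.1 and 30.0 CPM of foxa1, above the fed levels. The core regulator hnf4a was not called at 91.5 and 97.7 against 112 and 116 CPM (-0.27 ± 0.13). The receptor nr5a5 rose 2.56-fold from 42.7 and 44.5 to 107 and 116 CPM, below the 796 and 682 CPM of fasted livers.

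Among 22 embryonic RNA regulators and genes linked to let-7, a microRNA family that times the passage from embryonic to later programmes, 3 fell and 1 rose (median -0.41). The let-7 inhibitor lin28a had 1.41 and 1.07 CPM at 4 dpf and 0 and 0.0814 CPM in fed livers. The fed libraries held 2 counts in all against 68 at 4 dpf, a ratio of 27.16 in favour of 4 dpf. Its counting interval of 7.24 to 229 takes each count as independent, although low counts were mostly even, and may be too narrow. The ubiquitin ligase trim71, a let-7 target, fell 2.06-fold from 48.8 and 49.5 to 21.6 and 26.03 CPM. Neither was called without fed replicate 1, where 1 member fell, and 5 fell without fed replicate 2. The RNA-binding protein igf2bp3 stayed just under the fold limit (147 and 155 against 283 and 298 CPM), and the chromatin protein hmga1b, another let-7 target, rose 3.48-fold from 2.58 and 2.06 to 8.73 and 7.44 CPM.

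Single genes of hormone signalling changed by large folds, and the list's counts stand beside 6.72% higher and 2.89% lower over all genes. Of 48 growth hormone, insulin and insulin-like growth factor (IGF) genes 3 rose and 3 fell (median -0.10). These counts were not stable: 8 rose and 5 fell with ventral fed livers in place of the fed ones, and 5 fell with library size alone. The binding protein igfbp1b (ENSDARG00000038666), which restrains IGF, stood at 299 and 173 CPM in fed and 8.16 and 16.8 CPM at 4 dpf (18.9-fold, 4.24 ± 0.52, adjusted p = 0.000736), and at 3989.7 and 2790.0 CPM in fasted livers, which were higher than fed ones by a called difference (-3.84 ± 0.50). The growth brake ddit4, an inhibitor of mTOR signalling, rose 8.36-fold from 1.27 and 1.37 to 12.3 and 9.88 CPM. The cytokine feedback inhibitor cish, a target of growth hormone signalling, fell 2.71-fold from 50.6 and 61.7 to 22.9 and 18.7 CPM.

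Some clock and immediate early genes also rose. Of 46 circadian clock genes 8 rose and 1 fell (median 0.17), and 5 rose without fed replicate 1, and the hour of collection, which clock transcripts follow, is not stated. The nuclear receptor rorcb, an activator of the clock loop, stood at 28.0 and 34.7 CPM in fed and 2.76 and 1.90 CPM at 4 dpf (13.4-fold), and the cryptochrome cry3b at 32.7 and 30.1 against 3.57 and 4.796 CPM (7.51-fold, adjusted p = 2.14e-09). In fasted livers 17 of the 46 clock genes were higher than at 4 dpf and 2 lower, against 18.7% and 20.3% of all genes. Between fed and fasted livers 17 were lower in fed and 5 higher, against 16.8% and 20.7% of all genes. Of 37 immediate early genes 16 rose and 1 fell (median 1.41), and 10 rose without fed replicate 1. The zinc finger factor egr1 stood at 517 and 277 CPM in fed and 58.6 and 107 CPM at 4 dpf, the phosphatase dusp2 at 66.0 and 40.6 against 0.848 and 2.06 CPM (36.9-fold) and the antiproliferative gene btg2 at 146 and 62.5 against 3.99 and 4.49 CPM (24.6-fold). Fed replicate 1 was the higher fed library in all of these 3 genes. In fasted livers egr1 stood at 534 and 474 CPM, close to fed replicate 1, and ventral fed livers at 159 and 82.4 CPM. Over the immediate early list, 30 of the 37 genes were higher in fasted than in 4 dpf livers and 0 lower (median 2.44). Between fed and fasted livers 20 were lower in fed and 3 higher (median -1.17), against 16.8% and 20.7% of all genes. The rise over 4 dpf was therefore not particular to fed livers. The egr1 call was lost without 4 dpf replicate 1 (log2 1.89).

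Retinoid and thyroid hormone genes rose in 9 of 36 cases and 1 fell (median 0.45). The retinol esterifying enzyme lrata, a marker of stellate cells as well, stood at 4.84 and 2.85 CPM in fed and 0.0707 and 0.0761 CPM at 4 dpf (48.7-fold, adjusted p = 0.000173). The carotenoid oxygenase copy bco1l went from 0.954 and 2.13 to 7.94 and 11.999 CPM and the retinol binding protein rbp2a from 98.6 and 73.8 to 407 and 379 CPM (4.56-fold), a gene also on the intestine list. Fasted livers held 0 and 0.103 CPM of lrata, 1.86 and 2.61 CPM of bco1l and 57.7 and 41.8 CPM of rbp2a. The deiodinase dio3b, which inactivates thyroid hormone, rose 9.52-fold from 5.90 and 3.58 to 59.99 and 30.7 CPM, and fasted livers held 468 and 432 CPM.

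Of 36 iron and haem handling genes 9 rose and 1 fell (median 0.41). Haemopexin is among them, and so is the iron exporter ferroportin, slc40a1, which rose 3.41-fold from 11.8 and 11.6 to 33.5 and 46.004 CPM (1.77 ± 0.16, adjusted p = 3.35e-07). The member that fell was hamp, named here after its values were seen, which encodes hepcidin, the hormone that degrades ferroportin. It went from 153 and 133 CPM at 4 dpf to 58.8 and 67.6 CPM in fed livers (-1.18 ± 0.16), against 480.3 and 399 CPM in fasted livers.

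Globin transcripts were more abundant in the older, fed liver. All 10 tested embryonic and larval globins rose (median 3.92), copies that share sequence and may divide reads unevenly, and the adult globins had too few counts to be tested. The alpha-type globin hbae3 stood at 266 and 303 CPM in fed and 29.0 and 18.7 CPM at 4 dpf (11.9-fold, adjusted p = 0.00501) but at 10.3 and 2.87 CPM in fasted livers. The haem-synthesis enzyme of red cells, alas2, rose 18.3-fold from 1.77 and 2.06 to 32.8 and 37.3 CPM (4.20 ± 0.33). Globins took 0.00614% and 0.00380% of counts at 4 dpf and 0.0496% and 0.0640% in fed livers. Of 26 red blood cell genes 12 rose and 1 fell, with a median of 1.24. This list shares hbae1.1, hbae3, hbbe1.1 and hbbe2 with the globin list, so the counts overlap. The gene that fell was the ammonia transporter rhag, which went from 664 and 551 to 220.3 and 269 CPM. Summed over the red blood cell list, which rhag leads at 4 dpf, counts were 0.0989% and 0.0770% of the total at 4 dpf and 0.0836% and 0.105% in fed livers, so the groups overlapped.

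Of 31 macrophage and neutrophil genes 17 rose and 14 were not called (median 1.83). That count was 5 and 10 without 4 dpf replicates 1 and 2 and 9 and 11 without fed replicates 1 and 2. The neutrophil peroxidase mpx stood at 17.5 and 16.6 CPM in fed and 1.06 and 1.75 CPM at 4 dpf (12.1-fold, adjusted p = 0.0484), but at 1.07 and 2.25 CPM in ventral fed livers, and it was not called when any 1 of the 4 libraries was left out. Over the whole list, 15 of the 31 macrophage and neutrophil genes rose in ventral fed livers over 4 dpf and 1 fell (median 1.61). Interferon response genes rose in 5 of 27 cases (median 1.36). In fasted livers 8 of the 27 were higher than at 4 dpf and 1 lower (median 1.17), against 18.7% and 20.3% of all genes. Between fed and fasted livers 5 were higher in fed and 2 lower (median -0.07), against 20.7% and 16.8% of all genes. The 5 that rose in fed livers over 4 dpf included the antigen presentation gene b2m (1.095 and 1.56 to 7.36 and 7.97 CPM, 5.77-fold), the peptide transporter tap1 (2.05 and 2.47 to 7.41 and 7.16 CPM) and the interferon regulator irf7 (1.41 and 1.07 to 6.52 and 5.04 CPM). That count was 3 without 4 dpf replicate 1 or fed replicate 2 and 9 with DESeq2. Of 31 acute phase and inflammation genes 7 rose and 2 fell (median 0.32), with 4 and 3 rising without 4 dpf replicates 1 and 2. The cytokine gene tnfb had no counts at 4 dpf and 1.16 and 0.407 CPM in fed livers, at least 13.4-fold higher, and irg1l, also without counts at 4 dpf, held 8.41 and 0.325 CPM, nearly all of it in fed replicate 1. With ventral livers in place of the fed ones neither gene was called. Neither tnfb nor irg1l was called without 4 dpf replicate 1, nor irg1l without 4 dpf replicate 2.

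Endothelial genes leaned lower, with 4 of 34 fallen and 1 risen (median -0.28). The vessel receptor tie1 fell 2.12-fold from 66.4 and 62.0 to 30.1 and 30.6 CPM and the scavenger receptor lyve1a 5.51-fold from 4.73 and 5.44 to 0.946 and 0.895 CPM. Ventral fed livers held 3.94 and 5.88 CPM of lyve1a, as much as at 4 dpf, and neither gene was called with them. Over the list, 3 of 34 genes fell and 1 rose in ventral livers. Fasted livers went the other way, with 24 of the 34 higher than at 4 dpf and 1 lower. Between fed and fasted livers 26 were lower in fed and 1 higher (median -1.53), against 16.8% of all genes lower. The growth factor receptor kdrl was not called at 81.4 and 74.1 against 103 and 106 CPM. Of 34 stellate and mesenchymal genes 4 rose, and of 38 skin genes 3 rose. Of 25 biliary genes 2 rose and 1 fell, the Notch ligand jag1b (22.6 and 23.2 to 9.99 and 10.8 CPM). Over all genes 6.72% rose and 2.89% fell, and the skin and biliary counts were near those shares. Of the biliary genes 1 rose without 4 dpf replicate 1, 4 dpf replicate 2 or fed replicate 2 and 0 with ventral livers, and 3 fell without fed replicate 2.

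Markers of organs beside the liver moved with the comparison. Of 36 exocrine pancreas genes 12 rose (median 2.32), and their summed counts were 0.0924% and 0.0863% of all counts at 4 dpf and 0.389% and 0.357% in fed livers. Ventral fed livers held 0.0412% and 0.101%, and 2 pancreas genes rose with them in place of the fed ones. Fasted 7 dpf livers held 0.784% or more in each library, above both fed libraries, and 5 dpf livers 0.220% and 0.399%. Of the 36 genes, 30 were higher in fasted than in 4 dpf livers and 1 was lower. Between fed and fasted livers 12 were lower in fed and 2 higher, against 16.8% and 20.7% of all genes. A rise over 4 dpf was thus not particular to fed livers. The trypsin prss59.1, one of several near-identical copies, stood at 416 and 333 CPM in fed, 47.5 and 49.0 CPM at 4 dpf and 28.1 and 91.1 CPM in ventral livers. The count of pancreas genes that rose was 5 and 3 without 4 dpf replicates 1 and 2, 6 and 4 without fed replicates 1 and 2, and 26 with DESeq2. Insulin (ins) stood at 2.103 and 23.6 CPM in the fed replicates. The 4 dpf libraries held 2 counts in all against 621, a ratio of 389 with a counting interval of 107 to 3216. That interval also takes each count as independent and may be too narrow. The trypsin was not called when any 1 of the 4 libraries was left out, nor insulin without either 4 dpf replicate or fed replicate 2.

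Of 38 intestine genes 8 rose and 1 fell (median 1.24), with 4 rising without fed replicate 2 or without either 4 dpf replicate, 13 rising with DESeq2 and 3 with ventral livers. The chitinase chia.1 stood at 1.89 and 90.5 CPM and the glucose transporter slc5a1 at 4.52 and 40.6 CPM in the fed replicates, against 0.636 and 0.381 and 0.424 and 1.14 CPM at 4 dpf, so fed replicate 2 stood far above fed replicate 1, and neither was called without 4 dpf replicate 1. The chitinase chia.1 was not called without 4 dpf replicate 2 either, nor without fed replicate 2, where its log2 difference was 1.88. Summed levels of the macrophage, intestine and muscle lists were not used, because apoc1, apoa4b.1 and eno3, which the liver also makes, held 98.2%, 55.4% and 98.5% of them in fed livers. Ventral fed livers held 1.52 and 2.97 CPM of slc5a1 and 0.0896 and 0.716 CPM of ins. Against the same 4 dpf libraries, the log2 difference of the ventral livers was 4.08 ± 0.14 for ahsg2, 7.25 ± 0.33 for hpxa, 6.80 ± 0.29 for apoa4a, 3.53 ± 0.27 for fads2 and 3.36 ± 0.16 for prdx1. It was -5.17 ± 0.41 for cyp7a1, -2.12 ± 0.16 for nr1h4 and -8.36 ± 0.83 for gck, and all of these 8 were called there. The part of neighbouring organs in the other genes was not tested.

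**Figure D4:**
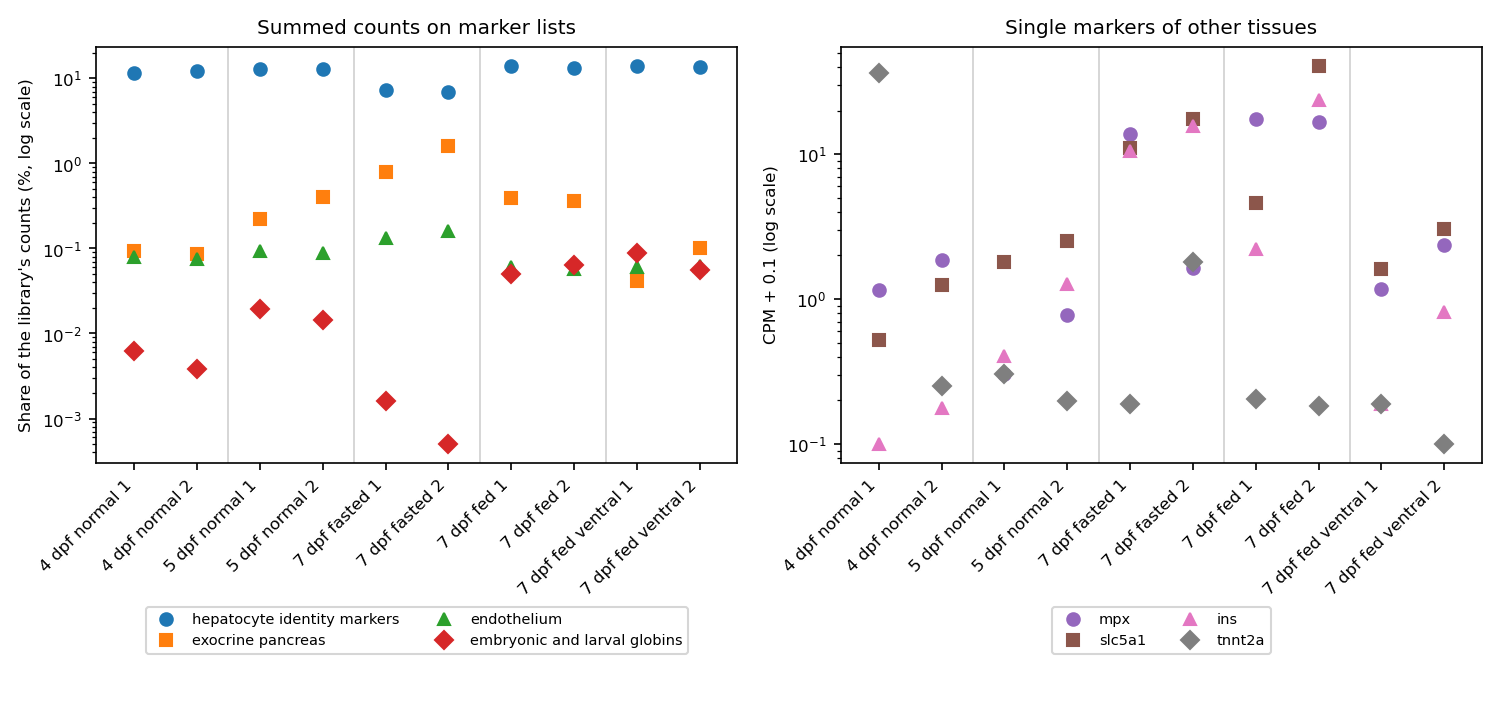
Left, summed counts of 4 marker lists as a share (%, log axis) of each library's counts; right, CPM + 0.1 (log axis) of the neutrophil gene mpx, the gut transporter slc5a1, insulin (ins) and the heart gene tnnt2a in the same libraries. Exocrine pancreas RNA is higher in both fed libraries (0.389% and 0.357%) than at 4 dpf or in ventral livers. Fasted 7 dpf livers held more than the fed ones, 0.784% or more in each library, and 5 dpf livers 0.220% and 0.399%. The gene tnnt2a is high in 4 dpf replicate 1 alone (36.6 CPM), and among the fed and 4 dpf libraries slc5a1 and ins are highest in fed replicate 2.

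Genes ranked first by p among those that fell belonged to varied cell functions. The actin bundler pls3 (ENSDARG00000037655) stood at 137 and 140.0 CPM in fed and 472 and 491 CPM at 4 dpf (3.48-fold, -1.80 ± 0.11, adjusted p = 1.57e-09). The glycine transporter slc6a9 fell 5.38-fold (66.2 and 87.8 to 12.04 and 16.5 CPM), the calcium-activated potassium channel kcnma1a 9.13-fold (23.6 and 21.4 to 2.84 and 2.12 CPM) and the translation regulator cpeb4a 3.17-fold (116 and 136 to 38.6 and 41.0 CPM). The first enzyme of purine synthesis, ppat, fell 2.40-fold from 86.6 and 87.3 to 35.9 and 36.5 CPM, though it remained above the fasted level of 8.50 and 8.56 CPM. For pls3, kcnma1a and cpeb4a fasted libraries lay between the 4 dpf and the fed ones (226 and 237, 6.42 and 7.43 and 61.6 and 66.5 CPM), while slc6a9 in fasted livers was at the 4 dpf level (71.7 and 72.1 CPM). Among the highest-ranked increases, cbln8 rose 8.54-fold from 14.0 and 13.7 to 115 and 121 CPM and stood at 145 and 143 CPM in fasted and 170.0 and 174 CPM at 5 dpf, so that all of these later libraries were high.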

How the data were processed

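RNA from dissected livers, 30 larvae a library, was sequenced with a strand-marking kit, per the labels' protocols. The deposited table holds raw counts per gene; reads were mapped with HISAT2 to GRCz11 and counted with featureCounts by the authors, per the series design text and the submitters' processing notes, while for versions, annotation and strand setting nothing is stated, so overlapping antisense genes and near-identical copies (globins, trypsins) are uncertain. The same text names iDEP and calls genes at 0.1 for the false-discovery rate and 2 for the fold, limits used here too.

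From the counts, edgeR 4.0.16 (limma 3.58.1, R 4.3.3) fitted all 16 libraries in 8 groups with TMM scaling, filterByExpr and the robust quasi-likelihood test (8 residual degrees of freedom), with Benjamini-Hochberg adjustment over 17799 genes of 32058 features, 6166 of which had no counts. The fit was also run on data simulated from its own group levels and spread. Those data held neither the excess of even counts nor uneven transcripts of neighbouring organs, so that run could not test the fit against either. An exact permutation test of 2 against 2 libraries cannot go below p = 0.333. Genes were named by rule (the lowest p-values among higher and among lower genes; per list, at most 4 called members by fold and the 3 most abundant), except where said. Outside the rule, bag3 and ddit3 were named as members that rose in their lists. The comparison and its 51 lists (1995 of 2132 symbols matched) were chosen with earlier results of these data known. In the 4 libraries 3 counts equal 0.106 to 0.158 CPM, and floors and intervals cover counting error only. Both take each count as independent, which the excess of even counts given next puts in doubt, so both may be too tight. Counts of 1 to 50 were even in 70.3% to 77.8% of cases, against 50.9% to 56.2% over 1000, so halved counts were an alternative; others were RLE or library-size scaling, TMM without marker lists, no filter, DESeq2 1.42.0, a stricter threshold, the 4 libraries alone, ventral for fed livers, a replicate block and each library left out. Replicate numbers were not treated as pairs.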

Additional observations from a re-analysis of the deposited data

How the results depend on the processing

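Against 1196 higher and 515 lower genes, edgeR called 869 to 1035 higher and 367 to 566 lower when any 1 of the 4 libraries was left out, where the lone library is assumed to vary like the other groups. With ventral livers in place of the fed ones 1455 were higher and 918 lower, and the other settings gave 967 to 1380 higher and 408 to 772 lower genes. Same-numbered libraries did not deviate together (r = -0.038 between fed and 4 dpf, 0.092 between fed and fasted), and with a replicate block 1166 genes were higher and 504 lower, and 3654 and 2946 between fed and fasted livers. Of the named genes, hmgcs1 changed sign, to -0.013 with library size alone and -0.12 with ventral livers, and was -0.17 to 0.53 with 1 library left out. The sign of apoea turned with ventral livers (-2.47). These causes were not tested. With no filter on low counts 32 of the pancreas list and 11 of the interferon list rose and 15 muscle genes fell. Low-level genes near 3 counts a library and genes at the fold limit are the least certain.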

Other observations

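Some lysosomal proteases rose in the fed 7 dpf liver. Of 59 lysosome and autophagy genes 6 rose and 53 were not called (median 0.22, against 0 over all genes). Cathepsin H (ctsh) stood at 14.9 and 13.4 CPM in fed and 4.45 and 5.75 CPM at 4 dpf (1.47 ± 0.22), and cathepsin K (ctsk), a collagen-degrading protease, at 6.83 and 6.59 against 2.05 and 1.75 CPM (1.82 ± 0.30). Fasted livers held 7.71 and 5.74 CPM of ctsk. Among autophagy genes, map1lc3a, which coats autophagosomes, went from 5.33 and 5.44 to 15.3 and 11.3 CPM and the cargo receptor sqstm1 from 4.49 and 5.37 to 8.99 and 12.8 CPM. Fasted levels of both were higher again, 55.4 and 67.0 and 30.9 and 27.07 CPM, and those differences from fed were called (-2.20 ± 0.18 and -1.40 ± 0.23). The rise of sqstm1 over 4 dpf was 0.87 and not called without fed replicate 2.

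The cytokine feedback inhibitor socs1a, chosen after its values were seen, fell 5.83-fold, from 8.34 and 11.99 CPM at 4 dpf to 1.68 and 1.79 CPM in fed livers (-2.54 ± 0.30), while fasted livers held 8.24 and 8.15 CPM. Of 24 neuron and glia genes 2 rose and 2 fell, but 0 or 1 rose without 4 dpf replicate 2 or either fed replicate, and 0 or 1 fell without any 1 of the 4 libraries. Of 34 muscle genes 1 rose and 1 fell, with a median of -1.52, or -1.31 with members at 0 counts in a group set at their bound. The number of muscle genes that fell was 0 without 4 dpf replicate 1, which held heart muscle transcripts, or without either fed replicate, 2 without 4 dpf replicate 2, 7 with the 4 libraries alone and 15 with no filter, and 0 rose without 4 dpf replicate 2 or either fed replicate. None of the 5 lymphocyte genes tested was called by edgeR or DESeq2. At an unadjusted p under 0.05, 1 was higher, a smaller part than the 5267 of 17799 over all genes.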
